A study of Mus musculus with 48 samples.

Results

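The contrast described here set the hours around the peak of the Rev-erb and Period transcripts against the hours on the opposite side of the cycle in NIH3T3 cells. NIH3T3 is an established line of mouse embryonic fibroblasts. The cells had been grown to confluence in DMEM with fetal calf serum and synchronised with forskolin, an activator of adenylyl cyclase that resets the clocks of all cells of a dish together. RNA was then taken at every hour from hour 20 to hour 67 after forskolin and hybridised to 1 Affymetrix mouse array per hour, 48 arrays in all. All groups carried the same treatment and differed only in the hour. The Rev-erb and Per phase was made of the 12 arrays of hours 22 to 27 and 46 to 51, and the opposite phase of the 12 arrays of hours 34 to 39 and 58 to 63, so 24 of the 48 arrays entered. Hours 20 to 43 were taken as day 1 and hours 44 to 67 as day 2, and day was a block in the fit.

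The circadian clock of mammalian cells is a loop in which the activators Bmal1 (here under its older symbol Arntl), Clock and Npas2 bind E-box elements and switch on Per, Cry and Rev-erb genes. Per and Cry proteins repress their own activators, and the Rev-erb receptors Nr1d1 and Nr1d2 repress Arntl and Npas2 through RORE elements on which the ROR receptors act as activators. Dbp, Tef and Hlf are activators of a further element, the D-box, at which Nfil3 is a repressor. Per and Rev-erb transcripts are therefore known to run ahead of, and against, those of Arntl and Npas2.

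The windows take their name from the Rev-erb and Per genes, whose peaks were known when the hours were chosen. For Nr1d1, Nr1d2, Per1, Per2 and Per3 the values in these hours are therefore a description. They remain in the counts over all probe sets, where nothing is read from their passing. Their p-values are printed for 16 held-out arrays, the 4 hours that flank each window on each day. These arrays belong to the same time course and are not an independent test. No hour had a second array, so neighbouring hours served as replicates, and whether the dishes came from 1 synchronisation is not given in the sources used here. The p-values measure only the spread between neighbouring hours, which are not independent cultures of 1 state.

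Both phases were alike in overall signal, with array medians between 6.58 and 6.71 on the log2 scale. The β-actin signal was over 1.4 (log2) higher at the 3′ end than at the 5′ end, a sign of shorter RNA or cDNA, in 5 of the 24 arrays, namely hours 22, 24 and 46 in the Rev-erb and Per phase and hours 36 and 38 in the opposite phase. The largest difference was 2.42, at hour 36. Of 10 fibroblast markers 9 exceeded 6.67, the median over all probe sets, and their summed level ran from 21.47 to 21.56 in the Rev-erb and Per phase and from 21.46 to 21.55 in the opposite phase. None of the 6 epithelial, 5 endothelial and 6 skeletal muscle markers lay above that median, and Fabp4 did among 4 adipocyte markers, Cd68 and Cd14 among 6 macrophage markers and Snap25 and Map2 among 6 neuron markers. Of these markers Thy1 (0.26) and Snap25 (0.20) were higher and Fabp4 (-0.39) lower in the Rev-erb and Per phase with the day block (limma adjusted p = 4.13e-05, 0.00956 and 0.000127), and they stood at 0.02, -0.01 and -0.07 with linear hour.

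Promoter sequences are shown for members of 2 gene groups, picked because they hold a motif. The groups are clock genes that were higher in the Rev-erb and Per phase, and chaperones of the endoplasmic reticulum. Of the chaperones 7 of 29 were lower in it with the day block (2.52% of all probe sets were). The sequences are RefSeq windows of GRCm38.p6, 250 bases before to 50 after an annotated start, and were searched on both strands for 5 motifs. Of 34 genes looked up, mainly clock and chaperone genes, 29 had an entry, with 38 promoters. Of these 29 genes 12 held any of the motifs, 5 an E-box, 1 a D-box and 2 the endoplasmic reticulum stress element. Capitals mark the D-box TTATGTAA in Per3, which is held by 0.938% of all 32851 promoters, and the E-box CACGTG in both promoters of Tef, which is held by 7.15%.

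Per3, chr4:151044616-151044915, minus strand: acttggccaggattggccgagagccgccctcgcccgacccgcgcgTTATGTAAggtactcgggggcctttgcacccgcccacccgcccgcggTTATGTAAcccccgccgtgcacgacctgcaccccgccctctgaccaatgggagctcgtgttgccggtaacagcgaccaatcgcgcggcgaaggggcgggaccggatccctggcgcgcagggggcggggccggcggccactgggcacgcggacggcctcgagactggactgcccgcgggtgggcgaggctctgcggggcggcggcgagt

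Tef, first promoter, chr15:81802423-81802722, plus strand: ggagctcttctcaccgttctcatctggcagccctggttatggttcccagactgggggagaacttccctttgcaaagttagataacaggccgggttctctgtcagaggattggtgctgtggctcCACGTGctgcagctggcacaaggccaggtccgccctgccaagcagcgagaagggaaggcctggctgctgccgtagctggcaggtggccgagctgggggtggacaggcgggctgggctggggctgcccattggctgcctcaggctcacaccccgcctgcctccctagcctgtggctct

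Tef, second promoter, chr15:81811164-81811463, plus strand: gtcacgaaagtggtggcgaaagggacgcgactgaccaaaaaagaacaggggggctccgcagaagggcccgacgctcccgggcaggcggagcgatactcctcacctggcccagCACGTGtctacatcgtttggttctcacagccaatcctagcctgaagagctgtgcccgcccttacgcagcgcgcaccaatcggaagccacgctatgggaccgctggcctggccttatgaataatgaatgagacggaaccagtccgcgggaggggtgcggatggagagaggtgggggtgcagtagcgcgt

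Counted from the annotated start, the 2 D-boxes of Per3 lie at -205 and -158 and the E-boxes of Tef at -127 and -138. An E-box also stood in the promoters of Per1, Cry1, Ciart and Bhlhe41, and its variant CACGTT, held by 4.68% of promoters, in those of Nr1d1, Cry1, Cry2 and Rorb. The RORE, searched as AGGTCA preceded by AANT and held by 0.219% of promoters, was found in 1 promoter of Arntl, 27 bases past its start. No motif was found in the windows of Nr1d2, Dbp or Npas2, which says only that these letters are not in those windows. For the chaperones, capitals mark the endoplasmic reticulum stress element, CCAAT and CCACG with 9 bases between them, which reads on the reverse strand in Creld2. It is held by 0.119% of promoters.

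Hspa5, chr2:34771840-34772139, plus strand: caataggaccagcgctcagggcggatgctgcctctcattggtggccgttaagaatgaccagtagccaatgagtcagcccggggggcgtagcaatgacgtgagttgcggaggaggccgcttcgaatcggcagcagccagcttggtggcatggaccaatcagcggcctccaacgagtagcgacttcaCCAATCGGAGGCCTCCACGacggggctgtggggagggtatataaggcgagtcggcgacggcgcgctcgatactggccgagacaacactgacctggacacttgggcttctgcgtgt

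Creld2, chr15:88819396-88819695, plus strand: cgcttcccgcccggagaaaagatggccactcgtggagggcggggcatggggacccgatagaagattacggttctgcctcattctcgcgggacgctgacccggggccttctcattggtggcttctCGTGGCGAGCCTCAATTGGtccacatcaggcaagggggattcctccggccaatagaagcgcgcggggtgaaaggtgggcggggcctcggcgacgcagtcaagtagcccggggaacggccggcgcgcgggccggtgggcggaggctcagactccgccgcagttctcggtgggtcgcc

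The element lies at -65 in Hspa5 and at -126 in Creld2. Each of these matches is a description of letters and not evidence of binding.

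The clock genes for which the phases are named showed the pattern on both days. RNA came from whole dishes, so fewer cells of a kind and less RNA per cell cannot be told apart. Per3, a Period paralogue, lay between 13.41 and 14.13 (median 13.64, log2 intensity) in the 12 arrays of the Rev-erb and Per phase and between 11.50 and 12.72 (median 12.27) in the 12 of the opposite phase. Every array of the first group was above every array of the second. The difference was 1.497 ± 0.08 (log2, SE), 2.82-fold, with 1.62 on day 1 and 1.38 on day 2. Nr1d2, which encodes Rev-erbβ, ran from 14.25 to 14.76 (median 14.59) against 12.96 to 14.00 (median 13.43), again without overlap. Its difference was 1.16 ± 0.10, with 1.34 on day 1 and 0.97 on day 2. Per2, the Period gene required for robust rhythms in mice, ran from 13.35 to 14.37 (median 13.73) against 11.94 to 13.43 (median 12.47). The ranges met at their ends, the lowest array of the Rev-erb and Per phase lying under the highest of the opposite phase, and the difference was 1.28 ± 0.13.

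Nr1d1, which encodes Rev-erbα, had more spread. It ran from 8.79 to 11.19 (median 9.73) against 6.76 to 9.49 (median 8.59), a difference of 1.29 ± 0.30, and its highest array of day 2 was hour 46. Per1, a Period gene that also responds directly to cyclic AMP, ran from 13.54 to 14.57 (median 14.07) against 13.35 to 14.29 (median 13.51), a difference of 0.47 ± 0.11. In both genes all 12 arrays of the Rev-erb and Per phase lay above the median of the opposite phase, although the groups overlapped.

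**Figure D1:**
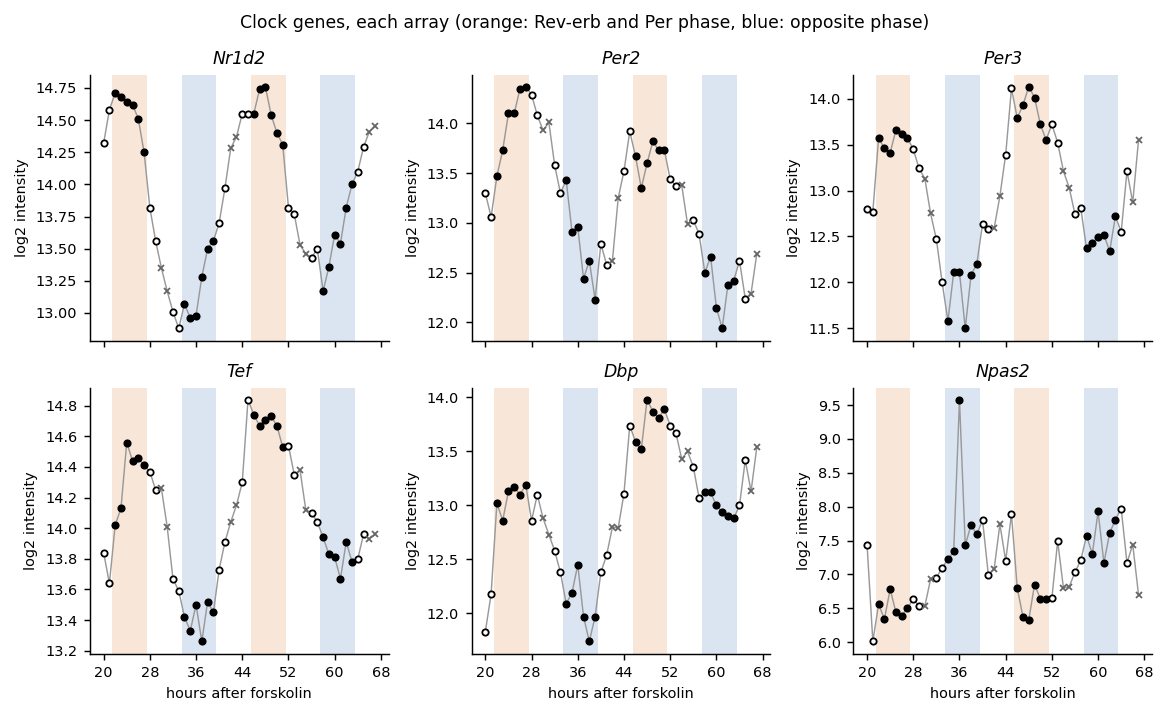
Log2 intensity of 6 clock genes (vertical axes, each with its own scale) against hours after forskolin, 1 point per array. Filled points are the arrays of the 2 phases (orange and blue bands), open points the held-out flank hours and crosses the remaining hours. Nr1d2, Per3 and Tef are higher in every array of the orange bands than in any of the blue bands, and Npas2 is lower in every one.

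For these genes p-values were taken from the held-out flank hours. Those hours stand directly beside the windows in the same time course. In a transcript that changes smoothly their sign is tied to the choice of windows, so they are not an independent test. The flanks of the Rev-erb and Per phase were hours 20, 21, 28, 29, 44, 45, 52 and 53, and those of the opposite phase hours 32, 33, 40, 41, 56, 57, 64 and 65. With a linear term for hour in place of the day block, for a reason given with the genome-wide counts, Per3 was higher by 1.01 ± 0.15 (limma, unadjusted p = 8.20e-06). The other 4 genes lay in the same direction, Nr1d1 by 1.19 ± 0.52 (unadjusted p = 0.0382), Nr1d2 by 0.64 ± 0.25 (p = 0.0227), Per2 by 0.61 ± 0.22 (p = 0.0166) and Per1 by 0.43 ± 0.13 (p = 0.00519), each under 0.05. With the day block in these arrays Nr1d1 was at 0.83 and missed that level (unadjusted p = 0.0941), while Per3 was at 0.75 (p = 0.000164), Per1 at 0.52 (p = 0.000697), Per2 at 0.74 (p = 0.00292) and Nr1d2 at 0.51 (p = 0.0391). No probe set of the array passed Benjamini-Hochberg adjustment over all 45037 in these 16 arrays, with either model, against 2475 at an unadjusted p under 0.05 with linear hour and 4817 with the day block. Hours 20, 40 and 45 were the 3 flank arrays with a high β-actin difference, and with those left out the values were 0.95 for Per3 (unadjusted p = 2.56e-05), 1.09 for Nr1d1 (p = 0.0412), 0.38 for Per1 (p = 0.00633), 0.58 for Nr1d2 (p = 0.0696) and 0.53 for Per2 (p = 0.0534). Hours 52 and 53 had a high BioB spike-in signal. With them taken out, Per3 was at 1.09 (p = 8.55e-05), Nr1d1 at 1.48 (p = 0.0469), Nr1d2 at 0.998 (p = 0.00308), Per2 at 0.64 (p = 0.0516) and Per1 at 0.36 (p = 0.052).

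The remaining repressors of the loop split into those that followed the phase and those that did not. Cry2, a cryptochrome that binds the activators with Per, ran from 12.18 to 13.10 (median 12.51) against 11.48 to 12.67 (median 11.74) and was higher in the Rev-erb and Per phase by 0.72 ± 0.10 (limma adjusted p = 0.000148). Cry1, the second cryptochrome, ran from 13.97 to 14.79 (median 14.40) against 13.46 to 14.19 (median 13.93) and was higher by 0.50 ± 0.09 (adjusted p = 0.00201). All 12 arrays of the first phase lay above the median of the second in both. With linear hour neither passed, Cry2 standing at 0.62 (adjusted p = 0.0742) and Cry1 at 0.57 (adjusted p = 0.0668). With the 5 arrays of high β-actin difference also left out, Cry2 passed (0.73 ± 0.10, adjusted p = 0.00803) and Cry1 did not (0.58 ± 0.12, adjusted p = 0.189). In the flank hours Cry2 was higher by 0.47 ± 0.15 (linear hour, unadjusted p = 0.00732), whereas Cry1 was at 0.24 ± 0.24 (p = 0.331). On day 1 Cry1 rose within the window, from 13.97 at hour 22 to 14.79 at hour 27, and was still at 14.59 at hour 31.

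Bhlhe40, an E-box repressor also called Dec1, was at 0.03 ± 0.14 and did not pass, and the value was -0.06 without hour 27. Nfil3, the D-box repressor, passed with the day block (0.27 ± 0.05, adjusted p = 0.00122), but its window means stepped downward throughout, 16.11, 15.81, 15.27 and 15.02, and with linear hour its difference was -0.14. Ciart and Bhlhe41 had a mean under the median over all probe sets and did not pass. Of the 11 measured clock repressors, 8 were higher and 0 lower with the day block, where 2.54% of all probe sets were higher and 2.52% lower, and the median difference was 0.50 against 0.0008 over all probe sets. Since 5 of the 8 are the genes the windows are named for, that count is no independent evidence of its direction. With linear hour none of the 6 other members passed, and the median difference over the 11 was 0.57.

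Among the activators Npas2, the Clock paralogue, was the reverse of the Rev-erb genes. Its 12 arrays of the Rev-erb and Per phase ran from 6.33 to 6.85 (median 6.53) and the 12 of the opposite phase from 7.17 to 9.58 (median 7.58). No arrays overlapped, the highest value being that of hour 36, the array with the largest β-actin difference. The difference was -1.14 ± 0.19 (adjusted p = 0.000759), with -1.17 ± 0.22 under linear hour (adjusted p = 0.0668). With all 5 arrays of high 3′ to 5′ difference left out, hour 36 among them, the linear hour value was -0.90 ± 0.10 and passed (adjusted p = 0.000575). In the flank hours Npas2 was at -0.12 ± 0.27 (unadjusted p = 0.672). Its signal was low, the median of 6.53 in the Rev-erb and Per phase lying under 6.67, the median over all probe sets. A second probe set of Npas2 had a mean of only 5.54 and stood at 0.0005 with the day block.

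Arntl ran from 12.96 to 13.43 (median 13.11) against 13.17 to 13.83 (median 13.30), and the groups overlapped. It was lower in the Rev-erb and Per phase by a small amount, -0.22 ± 0.06 (adjusted p = 0.0289), which missed the threshold without any one of hours 22, 25, 26, 37, 38 or 48, and its flank value was -0.01 ± 0.12. Rora, a ROR receptor, passed with the day block (-0.25 ± 0.06, adjusted p = 0.013), but stood at 0.0077 with linear hour. Clock was at 0.04 ± 0.07, or -0.01 without hour 36, and Rorb lay below the median of all probe sets. Of 5 measured activators 3 were lower with the day block (2.52% of all probe sets were) and 0 passed with linear hour (0.0266% of all did).

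The D-box factors Tef and Dbp were higher in the Rev-erb and Per phase with both models. Tef ran from 14.02 to 14.74 (median 14.54) against 13.26 to 13.94 (median 13.59) in its brightest probe set, with no overlap. It was higher by 0.89 ± 0.05 with the day block (adjusted p = 1.43e-09) and by 1.07 ± 0.06 with linear hour (adjusted p = 2.26e-10), and passed on each day alone, by 0.92 on day 1 (adjusted p = 0.000823) and by 0.85 on day 2 (adjusted p = 0.000188). In the flank hours the difference was 0.59 ± 0.12 (linear hour, unadjusted p = 0.000223), and it was 0.64 with hours 52 and 53 left out and 0.52 with hours 20, 40 and 45 left out. A second probe set of Tef gave 1.03 ± 0.15 with the day block and 1.17 ± 0.17 with linear hour.

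Dbp, an activator whose transcript is among the most rhythmic in many tissues, ran from 12.86 to 13.98 (median 13.35) against 11.74 to 13.12 (median 12.67). The groups overlapped because the level rose between the days, the window means being 13.08, 12.07, 13.77 and 12.99. Within each day no arrays of the phases overlapped, and they differed by 1.01 on day 1 (adjusted p = 0.00122) and 0.78 on day 2 (adjusted p = 0.00397). The difference was 0.89 ± 0.07 with the day block and 1.29 ± 0.09 with linear hour (adjusted p = 7.14e-09), and its second probe set gave 0.80 ± 0.11 and 1.25 ± 0.12. In the flank hours the value was 0.19 with the day block (unadjusted p = 0.287) and 0.64 ± 0.16 with linear hour (unadjusted p = 0.00141).

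For Sphk2, a sphingosine kinase gene next to Dbp, 1 probe set followed the phase and another did not. Probe set 1426230_at ran from 10.47 to 11.57 (median 10.94) against 9.52 to 10.95 (median 10.22) and was higher by 0.83 ± 0.06 with the day block and by 1.23 ± 0.08 with linear hour (adjusted p = 7.14e-09). The brightest probe set of the gene was at 0.21 ± 0.13 and did not pass (adjusted p = 0.636). In the RefSeq annotation the spans of Dbp and Sphk2 overlap, so it is uncertain which transcript the first probe set measured.

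Apart from Tef and Dbp, no known clock output on the list passed with linear hour. Of 12 measured, 4 were higher and 1 lower with the day block (2.54% and 2.52% of all probe sets were), and 2, Tef and Dbp, passed with linear hour. Usp2, a deubiquitinase, and Noct, also called nocturnin, were higher by 0.35 ± 0.07 and 0.46 ± 0.12 with the day block. With linear hour Usp2 and Noct stood at 0.03 and 0.08. Hlf, the third D-box activator, was lower with the day block (-0.32 ± 0.08, adjusted p = 0.02) but stood at 0.11 with linear hour, its window means rising without a turn from 14.07 through 14.58 and 15.11 to 15.24. Wee1, a kinase that holds back mitosis, Nampt, an enzyme of NAD synthesis, Tsc22d3 and Pdk4 were between -0.10 and 0.03 and did not pass, and Rgs16 and Ppara lay below the median of all probe sets. Of 14 clock kinases, phosphatases and ubiquitin ligases, 1 was higher with the day block and 0 with linear hour, and the 1, the deubiquitinase gene Usp7, differed by 0.09.

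**Figure D2:**
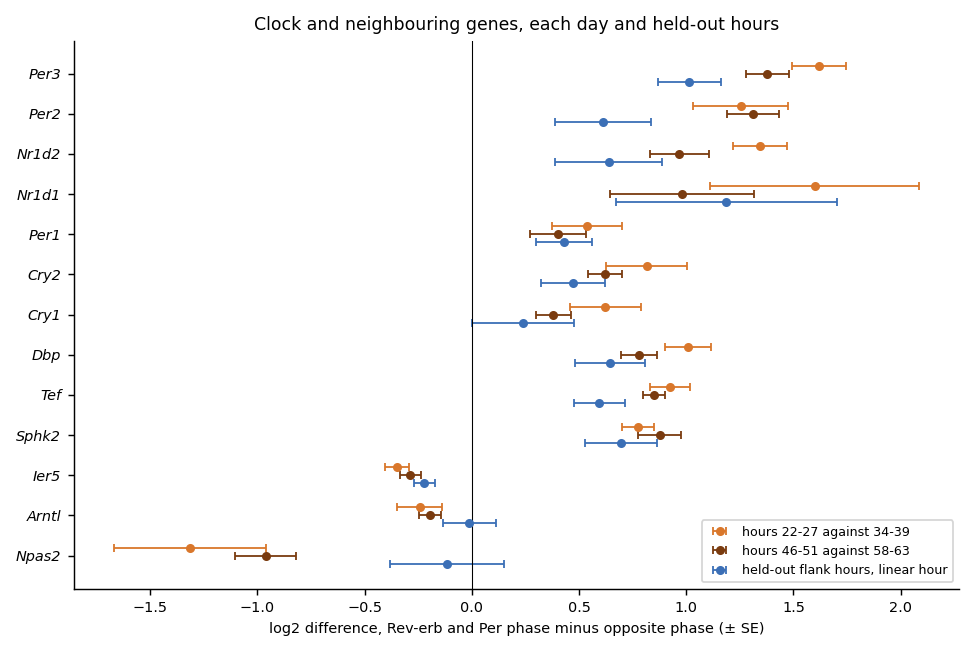
Log2 difference, Rev-erb and Per phase minus opposite phase, with its standard error (horizontal axis) for 13 genes, on each day alone (oranges) and in the held-out flank hours with linear hour (blue). Among the genes to the right of 0 in all 3 settings are Per3, Per2, Nr1d2, Nr1d1, Cry2, Cry1, Dbp, Tef and Sphk2. Ier5 lies to the left, while Arntl and Npas2 are left of 0 on both days and near 0 in the flank hours. Sphk2 and Ier5 are shown by probe sets 1426230_at and 1460009_at, which the brightest probe set of each gene did not follow.

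Across all 45037 probe sets, 2277 (5.06%) passed with the day block at an adjusted p under 0.05 (limma, Benjamini-Hochberg), 1144 higher in the Rev-erb and Per phase and 1133 lower. Most differences were small, with a median size of 0.27 (log2) among those called and 67 of 1 or more. On day 1 alone 1021 passed (2.27%) and on day 2 alone 668 (1.48%), and 200 passed on each day with the same sign (0.444%). On day 2 the split was 392 higher and 276 lower, and 433 and 201 with each array centred on its median. Nearly all called probe sets, 2238 of 2277, had a mean above the median of all.

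The opposite phase lay 12 h after the Rev-erb and Per phase on each day, so a steady change over the 2 days adds to the difference with day as a block. The 4 window means show how much of the list this touches. In 1949 of the 2277 (85.6%) the means stepped one way from hours 22 to 27 through to hours 58 to 63, against 22.4% of all probe sets, and in 320 (14.1%) they alternated with the phase, against 16.1% of all. With a linear term for hour in place of the day block, 12 probe sets passed (0.0266%), 9 higher and 3 lower, and 11 of them (0.0244% of all) also passed with the same sign with the day block. In 4 probe sets (0.00888%), those of Per3, Nr1d2, Tef and Npas2, no array of one phase overlapped the other. With linear hour and the day block together, chosen after the data were seen, 0 passed and 528 had an unadjusted p under 0.05. None of the 12 calls, those of Tef and Dbp included, passed in that model. Within a day 1 phase lies wholly before the other, so phase and hour nearly coincide there and little is left to tell them apart. That model therefore cannot decide whether these differences follow the phase. At an unadjusted p under 0.05 the counts were 6237 with the day block and 1223 with linear hour. A median size of 0.27 among the 2277 became 0.06 with linear hour. In the flank hours, with the day block in both sets of arrays, 2167 of the 2277 had the same sign (95.2%, against 48.4% of all probe sets). With linear hour in both, 1176 had the same sign (51.6%, against 56.7%). A linear term describes a steady change only and not one that levels off, so neither model removes every trend.

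**Figure D3:**
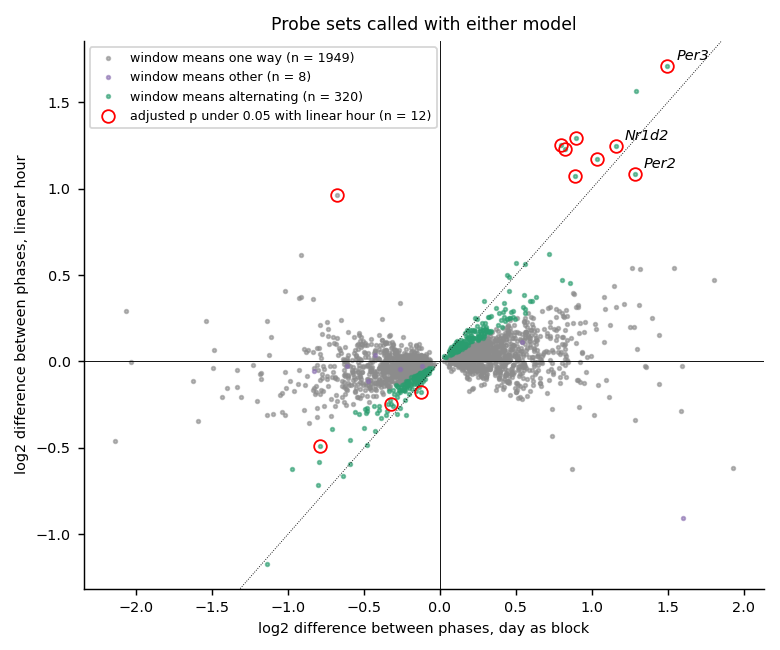
Log2 difference between the phases with linear hour (vertical axis) against that with day as a block (horizontal axis) for the 2277 probe sets called with either model, coloured by the order of their 4 window means. The 1949 grey points spread along the horizontal axis near 0 of the vertical one, and 11 of the 12 circled points, those that passed with linear hour, have the same sign on both axes.

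Of the 12 probe sets, 8 belong to Per3, Per2, Nr1d2, Tef, Dbp and Sphk2. The other 4 were Ier5, Sec11c and a pair with no gene symbol. Ier5, an immediate early gene, ran from 13.22 to 13.61 (median 13.43) in probe set 1460009_at against 13.56 to 13.89 (median 13.76), and was lower by -0.32 ± 0.04 with the day block (adjusted p = 1.62e-05) and by -0.25 ± 0.04 with linear hour (adjusted p = 0.0213). All 12 arrays of the Rev-erb and Per phase lay under the median of the opposite phase. The difference was seen in the flank hours too, -0.22 ± 0.05 (linear hour, unadjusted p = 0.000503), but the brightest probe set of the gene was at 0.04 ± 0.05 and did not pass, so the probe sets disagree. With the 5 arrays of high β-actin difference left out, the linear hour value was -0.25 at adjusted p = 0.16. Sec11c, a subunit of the signal peptidase, was lower by only -0.13 ± 0.03 with the day block and -0.18 ± 0.03 with linear hour (adjusted p = 0.0125), and by -0.06 ± 0.05 in the flank hours. It did not pass on day 1 alone (-0.08, limma adjusted p = 0.314). A second probe set of Sec11c passed with neither model, at -0.20 with the day block and -0.08 with linear hour. Of the pair with no symbol, 1448046_at was lower by both models (-0.79 and -0.49), and 1447462_at turned from -0.67 to 0.96. All 11 with the same sign in both had alternating window means, and 9 passed on each day alone, Per3, Per2 and Nr1d2 among them. The 11 were picked by both models from these same 24 arrays, so neither count is a further test. In the flank hours with linear hour 8 had an unadjusted p under 0.05 with the same sign (3.09% of all probe sets had). The 8 include Per3, Per2 and Nr1d2, both Tef probe sets, and the Sphk2 probe set that may measure Dbp, so they are not 8 separate genes.

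When each array was left out in turn, between 9 and 14 probe sets passed with linear hour, and outside the genes the windows are named for, Dbp, Tef, Sphk2 and Sec11c were among them every time. Ier5 was lost without any one of hours 34, 36, 37, 46, 48 or 49. The next probe sets by p among those called with the day block were Npas2, Cry1 and Cry2, then a second probe set of Hspa5 (-0.16, adjusted p = 0.129), Sdf2l1 (-0.59, adjusted p = 0.171), the brightest probe set of Hspa5 (-0.12), Arntl (-0.31) and a probe set of Hyou1 (-0.27), the last 3 at adjusted p = 0.266. Nr1d1, which gave its name to the windows, is left out of this order.

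Among chaperones of the endoplasmic reticulum more window means alternated with the phase than stepped one way. The unfolded protein response raises these genes when proteins misfold in that compartment. Of 29 measured members 7 were lower in the Rev-erb and Per phase with the day block and 0 higher (2.52% of all probe sets were lower). The median difference was -0.10. Window means alternated in 18 (16.1% of all probe sets) and stepped one way in 5 (22.4% of all). With linear hour 26 had a negative difference, as had 25988 of all 45037 probe sets, 0 passed and the median was -0.07. The members share the same arrays and are not independent of each other. Sdf2l1, a luminal component of chaperone complexes, ran from 12.25 to 13.31 (median 12.93) against 13.21 to 13.75 (median 13.47) and was lower by -0.59 ± 0.11 (adjusted p = 0.00152). No array of its Rev-erb and Per phase reached the median of the opposite phase. Creld2, a disulphide isomerase of that compartment, was lower by -0.28 ± 0.08 (adjusted p = 0.0335) and Manf, a secreted stress-induced factor, by -0.23 ± 0.05 (adjusted p = 0.013), and Creld2 missed the threshold without any one of hours 25, 26, 27, 38, 47, 48, 49, 60, 61 or 62. Hspa5, the chaperone BiP, was lower by -0.13 and Pdia3, a thiol isomerase, by -0.16. The differences were not seen in the flank hours, where the median of the list was -0.0018 with the day block and 0.03 with linear hour, and Sdf2l1 was at 0.06 and 0.03. With hours 22, 24, 36, 38 and 46 left out 12 members were lower with the day block and 0 passed with linear hour.

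Of all probe sets 2.54% were higher and 2.52% lower with the day block, and the counts of the gene groups that follow stand beside these shares. All 24 measured mitosis genes were higher in the Rev-erb and Per phase with the day block, with a median difference of 0.47. In all 24 the window means stepped downward throughout, and with linear hour 0 passed and the median was -0.05. Cenpf and Cenpe, proteins of the kinetochore, and Plk1, a mitotic kinase, differed by 0.94 ± 0.17, 0.83 ± 0.16 and 0.60 ± 0.13 with the day block, and by 0.05, 0.03 and -0.05 with linear hour. Cenpf had window means of 12.48, 11.90, 11.04 and 9.76. Among 26 DNA replication genes 13 were higher and 0 lower with the day block, with a median of 0.26, and 24 stepped one way. Tk1, thymidine kinase, differed by 0.58 ± 0.05, Pole, a polymerase subunit, by 0.69 ± 0.10 and Cdc6, which loads the replicative helicase, by 0.58 ± 0.13, and with linear hour they stood at 0.08, 0.19 and -0.20. The mean of the mitosis list ran, centred on the 24 arrays, from 0.74 ± 0.19 (SD over 6 arrays) in hours 22 to 27 through 0.31 ± 0.24 and -0.26 ± 0.14 to -0.80 ± 0.08 in hours 58 to 63.

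Among 22 lysosome and autophagy genes 11 were lower in the Rev-erb and Per phase with the day block (2.52% of all probe sets were) and 0 higher, with a median of -0.11, while 16 stepped one way and 0 passed with linear hour. Npc1, a cholesterol exporter of the lysosome, Gla, α-galactosidase, and Gabarapl1, an Atg8 homologue, differed by -0.28 ± 0.06, -0.27 ± 0.04 and -0.22 ± 0.05, and with linear hour by -0.05, -0.03 and -0.01. Gla differed more on day 1 (-0.42) than on day 2 (-0.13, interaction adjusted p = 0.0477).

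**Figure D4:**
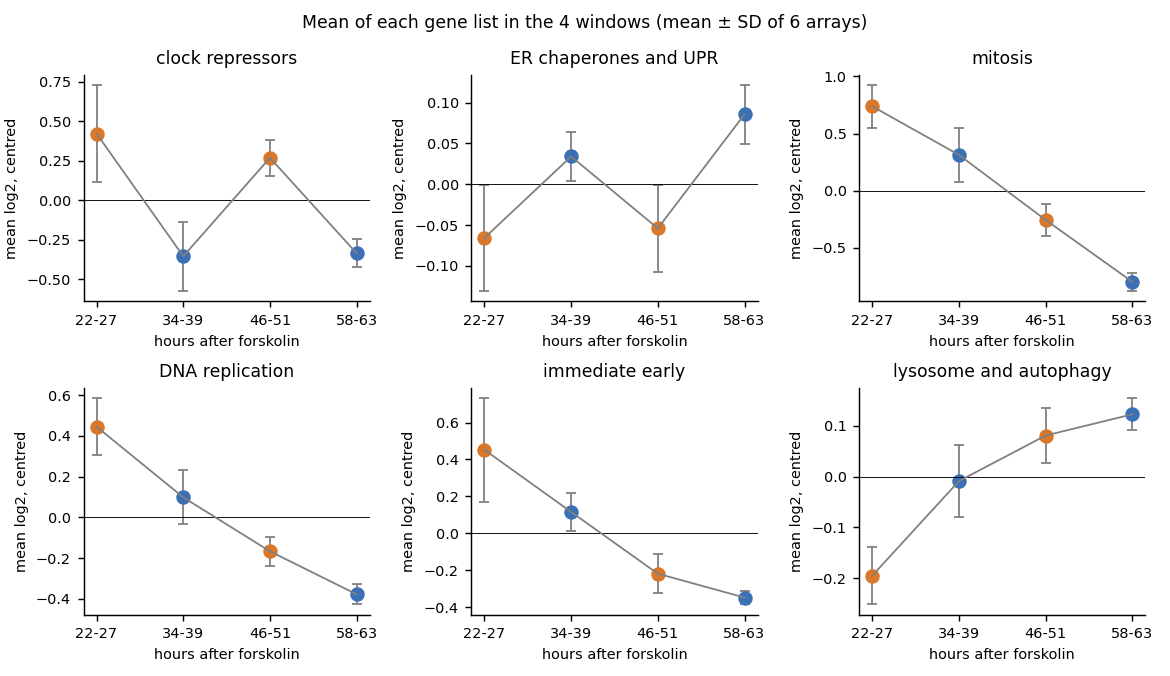
Mean log2 level of 6 gene lists in the 4 windows, centred on the 24 arrays (vertical axes, each with its own scale), with the SD over the 6 arrays of a window. Orange is the Rev-erb and Per phase and blue the opposite phase. The clock repressors and the endoplasmic reticulum list zigzag with the phase, whereas mitosis, DNA replication and immediate early genes step downward and lysosome genes upward through all 4 windows.

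Immediate early genes, which serum and cyclic AMP raise within minutes, had 6 of 22 members higher (2.54% of all probe sets were) and 0 lower (2.52%) with the day block, 12 stepped one way, and 0 passed with linear hour, where the median was -0.05. Nr4a1 and Nr4a2, nuclear receptors that respond to cyclic AMP, differed by 0.91 ± 0.16 and 0.40 ± 0.06 with the day block and by -0.11 and -0.05 with linear hour. Of 16 NF-kB and chemokine genes 4 were higher and 1 lower and 9 stepped one way, with a median of 0.29 (0.04 with linear hour). Among these the neutrophil attractant Cxcl1 differed by 1.03 ± 0.24 and Ptgs2, inducible cyclo-oxygenase, by 0.43 ± 0.12, and both had their highest value of the first window at hour 27. With the 5 arrays of high β-actin difference left out 1 of the 16 was higher and 1 lower, and without hour 27 5 were higher and 3 lower, with a median of 0.13. Of 16 genes of the TGF-beta response 6 were higher and 1 lower, and 10 stepped one way. Id1 and Id3, inhibitors of basic helix-loop-helix factors, differed by 1.395 ± 0.16 and 0.81 ± 0.11 and Ltbp2, a matrix protein that resembles TGF-beta binding proteins, by 0.64 ± 0.10, and with linear hour they stood at 0.25, 0.26 and 0.13.

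Of the remaining lists, none had more than 4 members called with the day block and none had a member that passed with linear hour. Glycolysis and hypoxia genes (21 measured), p53 targets (13), proteasome subunits (31) and FoxO and quiescence genes (16) had 0 members called with either model. The counts that follow are small, where 2.54% of all probe sets were higher and 2.52% lower. With the day block 1 of 31 cytosolic ribosomal proteins, 1 of 17 SRF and actin genes and the cold-inducible RNA-binding protein Cirbp (0.27 ± 0.05) were higher. Of 36 genes of oxidative phosphorylation 2 were lower, as were 1 of 19 genes of cholesterol synthesis, 1 of 17 of the integrated stress response and 2 of 19 of the interferon response. Heat shock genes (17 measured) had 1 higher and 3 lower, extracellular matrix genes (21) 1 higher and 2 lower, and NRF2 targets (17) 2 higher and 1 lower.

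Failing with linear hour was a condition for choosing the genes described next. Among probe sets called with the day block only, the largest differences belonged to genes that changed steadily or stopped changing during the 2 days. Among those higher in the Rev-erb and Per phase, Lcn2, an iron-binding acute-phase protein, differed by 1.93 ± 0.25 (adjusted p = 4.07e-05), with window means of 13.53, 11.59, 8.35 and 6.43. The change from day 1 to day 2 at the same hours of the cycle was -5.17, larger than the difference between the phases. Kcnk10, a potassium channel, differed by 1.59 ± 0.21 and Il6, the cytokine interleukin-6, by 1.44 ± 0.20, with changes of -3.77 and -3.18 between the days. With linear hour the 3 stood at -0.62, -0.28 and -0.13, and Lcn2 and Il6 had their highest value at hour 27.

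Vip, a neuropeptide gene with a cyclic AMP response element, and Retnla, a secreted resistin-like protein, differed on day 1 only. Vip ran at means of 10.03 and 6.44 in the windows of day 1 and 5.56 and 5.55 in those of day 2, so its difference was 3.59 on day 1 and 0.01 on day 2 (interaction adjusted p = 0.00171). For Retnla the means were 12.20, 8.998, 5.55 and 5.55 (interaction adjusted p = 0.00042). Both were near the lowest level of the arrays on day 2, where a difference between the phases was not detectable.

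Among those lower in the Rev-erb and Per phase, Edn1, endothelin-1, differed by -2.14 ± 0.30 (adjusted p = 0.000114), Inmt, a methyltransferase, by -2.07 ± 0.26 (adjusted p = 3.75e-05) and the chemokine Ccl8 by -2.03 ± 0.29 (adjusted p = 0.000128). Edn1 had window means of 6.82, 10.17, 11.43 and 12.35 and Inmt of 7.88, 10.94, 13.63 and 14.70. In these 3 the difference was larger on day 1 than on day 2, for Edn1 by -3.36 against -0.92 (interaction adjusted p = 0.000281), for Inmt by -3.07 against -1.07 (adjusted p = 0.00218) and for Ccl8 by -3.02 against -1.04 (adjusted p = 0.0177). Depp1, a FoxO-regulated gene, and the eotaxin gene Ccl11 differed by -1.62 ± 0.33 and -1.59 ± 0.16. With linear hour these 5 stood between -0.46 and 0.29, and that none passed was a condition of their choice.

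**Figure D5:**
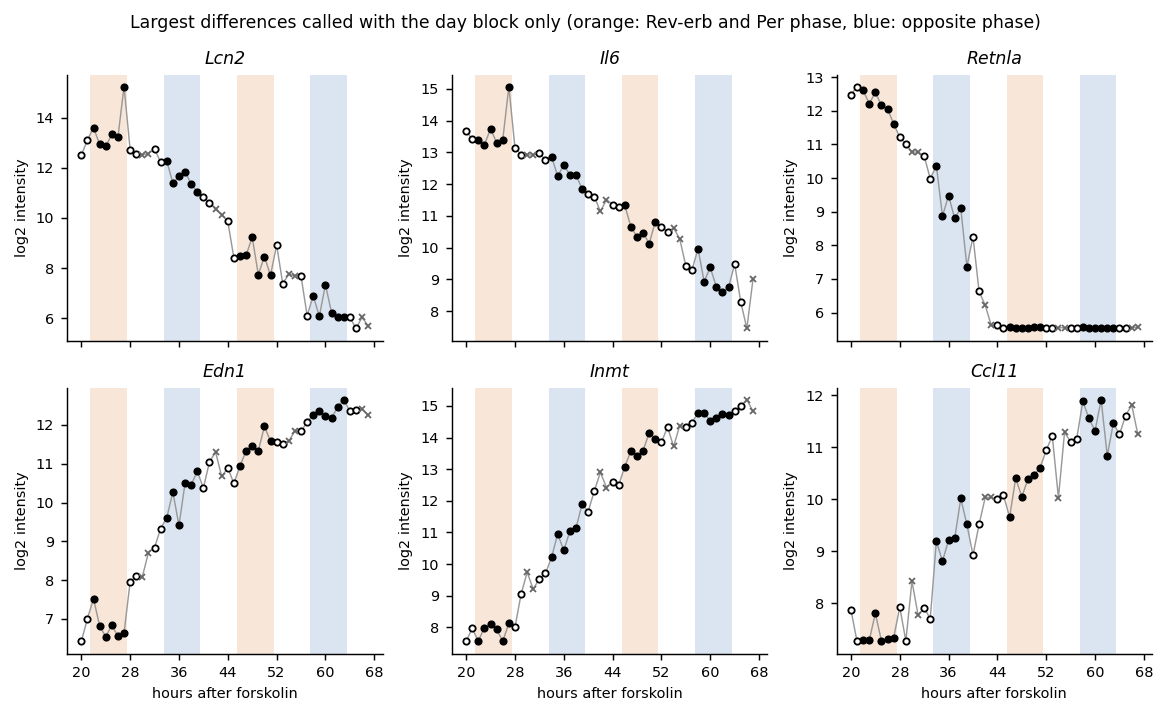
Log2 intensity (vertical axes, each with its own scale) of 6 of the 10 genes with the largest differences called with the day block only, against hours after forskolin, 1 point per array with filled points in the 2 phases. Lcn2, Il6 and Retnla decline and Edn1, Inmt and Ccl11 rise from band to band in their window means, apart from Retnla, which stays at its lowest level on day 2.

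Whether the difference between the phases itself changed between the days was tested as an interaction across all probe sets. It passed for 268 (0.595%). In 208 the signed difference was higher on day 2 and in 60 it was lower, which does not give its size. A negative difference that shrank on day 2, as in Edn1 and Inmt, counts among the 208. None of the clock repressors, activators and outputs passed in the probe set shown, with an adjusted p of 0.68 for Tef and 0.559 for Dbp, while a second probe set of Hlf did (0.57, adjusted p = 0.0433).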

How the data were processed

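RNA of NIH3T3 cells was profiled hourly on 48 Affymetrix mouse genome arrays. The authors deposited 1 intensity per probe set and array on a linear scale. Their methods name GCRMA and the processing notes MAS5, and the scaling constant is not given in the sources used here. The deposited intensities were taken to log2 with nothing added, 64 control probe sets were left out and 45037 were tested, of which 34945 carried 1 gene symbol. Groups were set by the hour in the sample titles. Differences were tested with limma 3.58.1 in R 4.3.3 (lmFit and eBayes, two-sided, Benjamini-Hochberg over all 45037, threshold 0.05), with day as a block, on each day, as an interaction, and in the flank hours. Scripts were tested on simulated data. A list gene was represented by its probe set of highest mean. Named genes were all clock genes, the largest differences called with both models or with the day block only, and up to 3 called members of a list with 5 or more. Members and gene lists were chosen with earlier results of these data known. The number of arrays limits the precision. Alternatives covered normalization, filters, windows, β-actin and single arrays.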

Additional observations from a re-analysis of the deposited data

Results flagged for a closer look

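For 268 probe sets the difference between the phases differed between the days (interaction, limma adjusted p under 0.05). Among the genes described these were Edn1 (adjusted p = 0.000281), Retnla (0.00042), Vip (0.00171), Inmt (0.00218), Ccl8 (0.0177) and Gla (0.0477), each with the larger difference on day 1.

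Single arrays stood far from the rest of their window in 35 of 336 groups of 6 or 8 arrays, where the gap to the nearest array exceeded 0.625 of the range for 6 arrays or 0.526 for 8. Chance gives about 0.05 of groups. Hours 36 and 46, both with a high β-actin difference, held 18 of the 35. At hour 36 the gap over range was 0.657 for Cry2, 0.65 for Bhlhe40, 0.786 for Npas2, 0.74 for the second Tef probe set, 0.784 for Vip, 0.645 for Cenpe, 0.661 for Plk1 and 0.699 for Pole, all highest, and 0.745 for Hlf, lowest. At hour 46 it was 0.641 for Nr1d1, 0.636 for Nfil3, 0.796 for the brightest Sphk2 probe set, 0.911 for Vip, 0.71 for Creld2 and 0.768 for Nr4a1, all highest, and 0.646 for Tsc22d3, 0.88 for Depp1 and 0.635 for Gabarapl1, all lowest. The part of RNA length in these values was not tested.

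Hour 27 was highest for Bhlhe40 (0.679), Lcn2 (0.691), Il6 (0.726), Cxcl1 (0.857) and Ptgs2 (0.847). Hour 62 was lowest for the second Tef probe set (0.849), Nr4a2 (0.729) and Ptgs2 (0.714). In the flank hours, hour 40 was highest for Arntl (0.608) and lowest for Clock (0.659), and hour 20 lowest for Gabarapl1 (0.532). The remaining gaps were those of hour 24 for Ccl11 (0.894, highest) and Gabarapl1 (0.799, lowest), hour 51 for Tef (0.643, lowest), hour 58 for the phase-following Sphk2 probe set (0.659, highest), hour 22 for Edn1 (0.696, highest) and hour 25 for Ccl8 (0.661, lowest).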

How the results depend on the processing

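The 2277 probe sets called with the day block became 12 with linear hour, 10 without the day block, 0 with linear hour and day together, 17 over means of 3 neighbouring hours, 1172 over the middle 4 hours of each window and 4035 with the β-actin value as a covariate. That covariate gave 2443 on day 1 and 488 for the interaction. Chosen after the data were seen, linear hour gave 15 with the 5 high β-actin arrays left out, 18 with the covariate, 15 over probe sets above the median, and 7 and 15 with windows 1 h earlier and later. Without 1 array the counts ran from 1833 to 3318 over both days, from 637 to 1494 on day 1 (hours 25, 37, 38 and 39 gave 637, 637, 674 and 640), from 343 to 729 on day 2 (hours 47, 48, 49, 59, 60, 61 and 63 gave 343, 366, 371, 434, 441, 356 and 382) and from 0 to 100 in the flank hours (hour 29 gave 100). The flank hours gave 6 with median centring, 9 over probe sets above the median and 1 without hours 52 and 53. Linear hour turned Nfil3 (-0.14), Rora (0.0077), Hlf (0.11), Tsc22d3 (0.16), Pdk4 (0.0032), Lcn2 (-0.62), Retnla (-0.91), Kcnk10 (-0.28), Il6 (-0.13), Inmt (0.29), Nr4a1 (-0.11), Nr4a2 (-0.0537), Plk1 (-0.0494) and Cdc6 (-0.20). Genes not called in the main setting also turned: Bhlhe40 with windows 1 h earlier (-0.0685) or the middle 4 hours (-0.12), Tsc22d3 with windows 1 h later (0.027) or the middle 4 hours (0.0605), Wee1 over all its probe sets (-0.0584), and, leaving out single arrays, Bhlhe40 (-0.0606 to 0.0985) and Clock (-0.0126 to 0.059). The cause of these changes was not tested. No paired analysis was possible because the replicate numbers only order the hours.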
